A study of Macaca mulatta with 39 samples.

Results

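TB31 and TD31 are a pair of rhesus macaque cell cultures grown out of teratomas, the tumours that embryonic stem cells (ESCs) form after injection into an animal, and both gave high signals of skeletal muscle genes. They were picked for the signals of MYH3, MYL1 and MYF5. Of the 39 arrays of the series, 5 belonged to them (TB31a, TB31b, TD31a, TD31b and TD31c), and these were set against the 9 arrays of TA31, TC31 and TE31, the other teratoma cultures of the same stem cell line. The third array labelled TB31, TB31c, was left out because its profile was that of a skin culture. Since muscle genes chose the cultures, every difference between the 5 and the 9 arrays is given as a description, with its size and spread, and no test of it is used as evidence. The difference between TD31 and TB31 was not used in the choice and was tested.

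The series set rhesus ESC lines beside teratoma cultures derived from them and beside skin fibroblasts of the parent animals. All the line C3106 teratomas carried the genotype of the male ESC line C3106 and had grown in immune-compromised mice; the labels name no altered gene and no treatment. Each culture came from 1 teratoma, TB31 from the second and TD31 from the fourth of the line, and the labels describe the outgrown cells as fibroblasts. The arrays of a culture are labelled as biological triplicates without saying whether they came from separate dishes, so the spread between them may be technical. The labels do not state the age of the host mice, the time in culture or the share of host cells. Total RNA was copied from its poly(A) end, labelled with biotin and hybridised to single-colour arrays; signals are on the log2 scale, on which a difference of 1 is a doubling.

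Skeletal muscle forms when myoblasts leave the cell cycle, fuse and build sarcomeres. The basic helix-loop-helix factors MYF5, MYOD1, myogenin and MYF6 drive this course. Sarcomeres alternate thick filaments of myosin with thin filaments of actin, which Z discs anchor. Calcium released from internal stores binds troponin C and lets myosin pull on actin. Fetal and regenerating fibres use an embryonic and a perinatal myosin heavy chain, MYH3 and MYH8, before the adult chains replace them.

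Several arrays went against their labels. TB31c correlated with the skin array M106p1b at r = 0.999 over all genes and with TB31a and TB31b at only 0.951 to 0.953. The array labelled M106p1f, a skin fibroblast sample, correlated with TD31b at 0.998 and with the other arrays of its own source at 0.930 to 0.935. An array labelled as ESC, C3806c, correlated with the teratoma array TC38a at 0.998. Between arrays of one line C3106 teratoma culture, r was 0.991 to 0.998 once TB31c was set aside. The median signal per array lay between 6.25 and 6.48. The gap between the 3′ and 5′ probe sets of actin, a measure of RNA integrity, was 0.11 to 0.38 in the 5 arrays and 0.02 to 0.78 in the 9. For GAPDH it was 0.60 to 0.87 against 0.59 to 0.82, so the ranges overlapped for both controls. In such bulk samples a smaller share of muscle cells and less muscle RNA per cell cannot be told apart.

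MYF5, the earliest myogenic factor, was read at 8.17 and 8.63 in TB31 and at 9.47, 9.37 and 9.53 in TD31. In the 9 arrays of TA31, TC31 and TE31 it ran from 3.54 to 4.17 with a median of 3.69, so the groups lay far apart. The difference of culture means was 5.15 with a limma standard error (SE) of 0.31, from 8.93 ± 0.75 (SD, n = 2 cultures) and 3.78 ± 0.26 (SD, n = 3). MYF6, its neighbour in the RefSeq annotation with no gene between them and a factor of maturing fibres, gave 6.79 and 7.13 in TB31 and 7.51, 7.15 and 7.27 in TD31, against 3.90 to 4.84 in the 9 arrays. MYOD1, which commits cells to the muscle lineage, was read at 7.56 and 7.58 in TB31 and at 6.02, 6.02 and 6.54 in TD31, above the 5.09 to 5.57 of the comparison arrays in each case. The MYOD1 signal of TD31 lay much closer to the comparison than that of TB31: the difference of 1.50 (SE 0.36) was 0.81 for TD31 alone. HES6, a repressor that promotes myogenic differentiation, was 1.23 (SE 0.26) higher, and 0.73 higher in TD31 alone.

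Of the other regulators, the paired-box factors of muscle progenitors stood at the level of the comparison cultures: PAX3 differed by -0.14 and PAX7 by -0.03. A second PAX3 probe set differed by -1.79. MEF2C, a cofactor of the myogenic factors, differed by 0.56 with overlapping arrays. MEOX2, a homeobox factor of limb muscle, read 8.42 to 9.21 in the 5 arrays but 8.40 to 8.64 in TC31, so the groups overlapped there despite a difference of 2.84. In all, 4 of the 27 measured myogenic transcription factors were higher and none lower by the descriptive rule used below. Myogenin (MYOG) was not measured by a probe set with a single gene name.

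That rule asked that all 5 arrays lie above, or all below, all 9 arrays and that the culture means differ by at least 1. Over all 14132 genes it held for 68 genes higher (0.481%) and 54 lower (0.382%); the cultures were chosen on muscle genes, so nothing is read from the shares. Of the 181 measured genes in 9 muscle lists, 33 were higher and 2, MYH2 and CRYAB, lower. The median difference over the 181 was 0.06, with 113 positive, against -0.01 over all genes, and 120 of the 181 differed by less than 0.5 in size. High values were therefore held by a minority of the muscle genes on the array. The counts depended on the cultures compared: without TB31 they were 206 and 207, without TD31 125 and 93, without TC31 130 and 113, and without TA31 100 and 92. Of the 68 genes, 57 to 67 stayed when any 1 of the 5 cultures was left out, and of the 33 muscle genes 30 to 33. Leaving out arrays cannot create overlap, so only the difference limit of 1 could drop a gene. Keeping TB31c under its label left 7 higher and 14 lower, while all 33 muscle genes still had positive differences of culture means, 30 of them of at least 1.

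**Figure D1:**
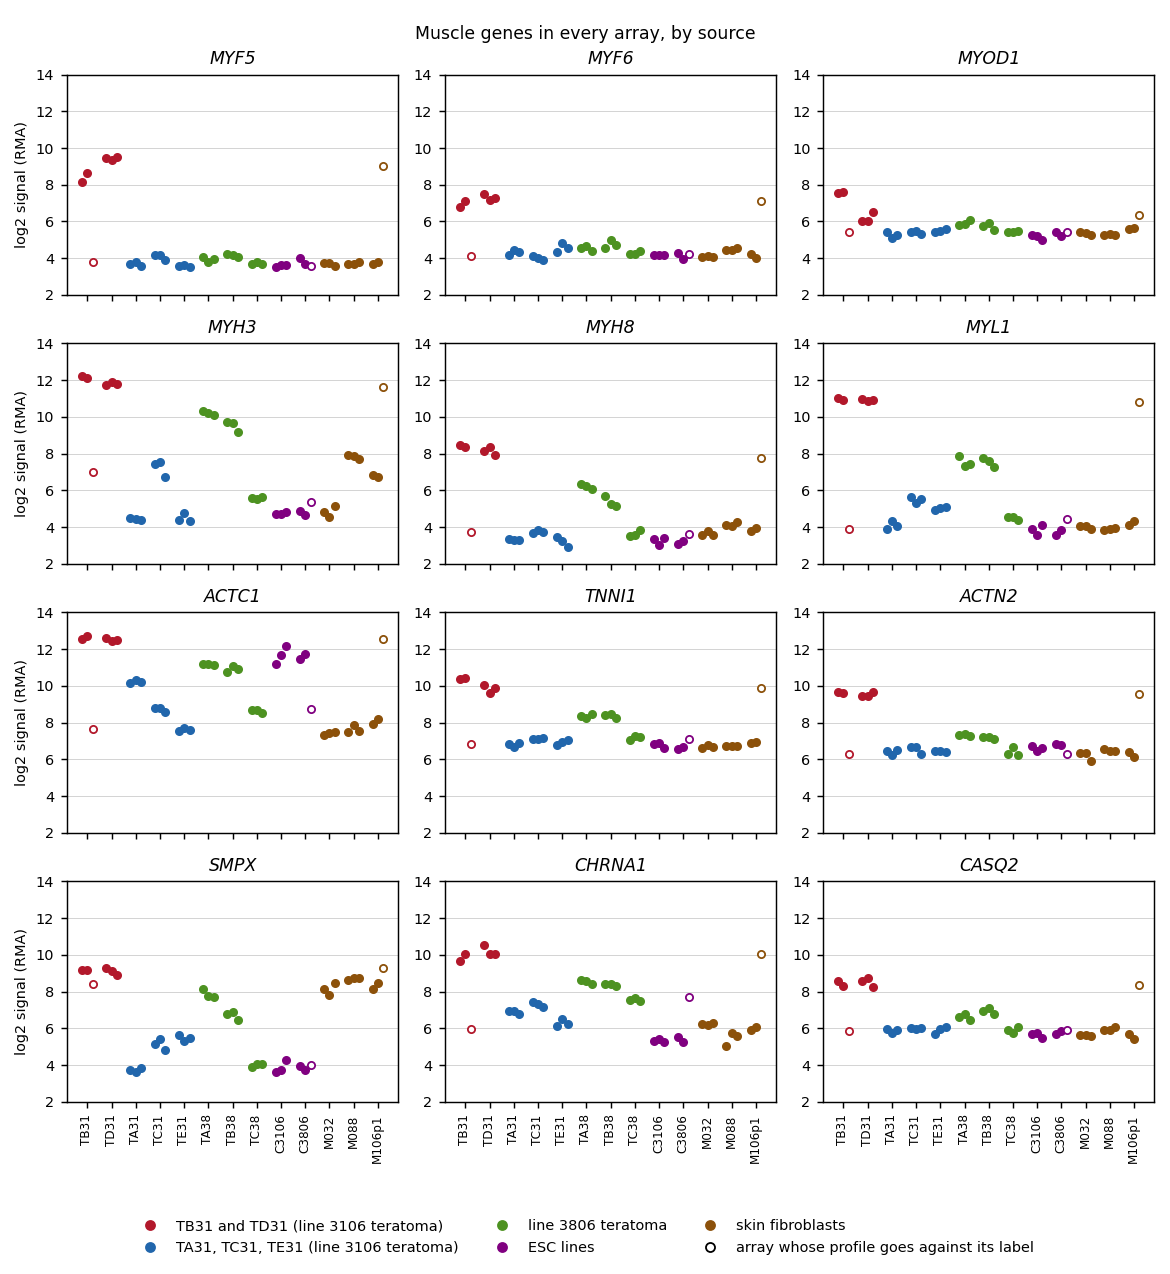
Log2 signal (vertical axes) of 12 muscle genes in every array, grouped by source along the horizontal axis; each point is 1 array and open points are arrays whose profile goes against their label. TB31 and TD31 lie above TA31, TC31 and TE31 for every gene drawn, with MYF5 at 8.17 to 9.53 against 3.54 to 4.17; the open skin point M106p1f lies with them, and TA38 and TB38 lie between for MYH3, MYH8 and MYL1.

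Among thick-filament genes the immature myosins led. MYH3, the embryonic heavy chain, was read at 12.25 and 12.12 in TB31 and at 11.72, 11.91 and 11.77 in TD31. In the comparison it was 4.36 to 4.77 in TA31 and TE31 but 7.43, 7.56 and 6.75 in TC31. TC31 thus lay nearest to the chosen cultures, still well below them; the mean difference was 6.59 (SE 1.45). MYH8, the perinatal chain, read 8.48, 8.34, 8.17, 8.34 and 7.93 against 2.94 to 3.87, a difference of 4.85 (SE 0.66). MYL1, the alkali light chain of fast fibres, read 11.03, 10.90, 10.97, 10.87 and 10.93 against 3.92 to 5.64, with only 0.03 SD between the means of TB31 and TD31. Its difference was 6.07 (SE 0.92).

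The adult heavy chains did not share that pattern. MYH2, the adult fast type 2A chain, was lower: 8.69 and 8.61 in TB31 and 7.54, 7.33 and 7.41 in TD31 against 8.80 to 10.09, a difference of -1.45 (SE 0.63) that was -0.84 in TB31 alone. In the skin sources M032 and M088 it read 10.79 to 11.81. MYH4 and MYH13, the fast 2B and extraocular chains, differed by -0.27 and 0.04. In the RefSeq annotation MYH8 directly adjoins both MYH4 and MYH13, and MYH1 lies between MYH4 and MYH2, so opposite differences occurred within 1 gene cluster. MYH1 and MYH7 had no probe set of their own here.

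Of the remaining thick-filament and M-band genes, MYL4, the embryonic and atrial light chain, was 2.37 (SE 0.26) higher, UNC45B, a myosin chaperone, 1.92 (SE 0.23), and MYBPH, a myosin-binding protein, 1.28 (SE 0.43). MYBPH was high mainly in TB31, with 8.11 and 7.84 against 6.17, 6.30 and 6.47 in TD31 and 5.72 to 6.13 in the comparison, and its difference was 0.44 in TD31 alone. In this list 6 of 20 genes were higher. MYOM2, an M-band protein of fast fibres, was 0.97 higher, just inside the limit of 1, while titin (TTN) differed by 0.08 and MYOM1 by 0.06.

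The thin-filament list held the largest share, 8 of 20. ACTC1, the actin of embryonic skeletal muscle and of heart, was read at 12.58, 12.74, 12.61, 12.45 and 12.49, above every comparison array. The comparison cultures were themselves unequal for ACTC1, averaging 10.25 in TA31, 8.72 in TC31 and 7.61 in TE31, and the difference was 3.73 (SE 0.94). Troponins of both fibre types were higher: TNNI1, the slow inhibitory subunit, was 3.18 (SE 0.37) higher and TNNI2, the fast one, 2.85 (SE 0.24). TNNC2, the fast calcium sensor, read 10.55 and 10.60 in TB31 and 9.14, 9.12 and 9.30 in TD31 against 5.65 to 6.22, and TNNC1, the slow and cardiac one, 10.30 to 10.75 against 6.35 to 8.87. The tropomyosin-binding subunits TNNT2 (cardiac and embryonic) and TNNT3 (fast) were 2.20 and 1.42 higher, and their second probe sets 2.26 and 2.51. KLHL41, a nebulin-stabilising kelch protein, was 3.48 higher but rested on TA31, the only comparison culture below 5; without TA31 it was 2.18 higher.

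Tropomyosins did not separate the groups on the probe sets used: TPM1 differed by -0.01, TPM2 by -0.26 and TPM3 by -0.07. Tropomyosins are active in fibroblasts and smooth muscle as well. TNNT1, the slow troponin T, differed by 0.00 on its brightest probe set and by 4.47 on the one that varied most between arrays. With the most variable probe set per gene, 38 muscle-list genes were higher in place of 33, and all 33 were among them. TNNT1, SRL (2.83), LMOD3 (2.06), TPM3 (1.99) and ERBB3 (1.51) were added. With the same choice 4 muscle-list genes were lower in place of 2. Of the 33 genes, 9 had a second named probe set, which differed by at least 1 for 6 and by less for TNNI1 (0.26), BOC (0.12) and CSRP3 (0.08).

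Z-disc genes formed a further group, with 8 of 29 higher. SMPX, a small protein of stretched muscle, was read at 9.15, 9.17, 9.26, 9.14 and 8.88 against 3.61 to 5.62, a difference of 4.36 (SE 1.07). CSRP3, the muscle LIM protein, read 9.63 and 9.67 in TB31 and 8.74, 8.49 and 8.71 in TD31 against 4.37 to 5.48. ACTN2, the sarcomeric alpha-actinin, varied least: 9.46 to 9.67 against 6.24 to 6.70, with its second probe set 2.04 higher. MYOT (myotilin), MYOZ2 (a calcineurin-binding protein), PDLIM3 (an actinin-binding LIM protein), TRIM55 (a titin-associated ring-finger protein) and HSPB3 (a small heat-shock protein) were higher by 2.92, 1.78, 1.77, 1.33 and 2.35. CRYAB, another small heat-shock protein that fibroblasts also make, was lower, at 10.44 to 10.97 against 11.51 to 12.42, although its second probe set differed by only -0.05. Desmin and telethonin were not measured. FLNC, the muscle filamin, differed by 0.05.

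At the membrane, CAVIN4 and CAV3, which shape muscle caveolae, were 3.10 (SE 0.84) and 1.88 (SE 0.22) higher, and ITGB1BP2 (melusin), which binds integrin tails, 1.24 (SE 0.41). The dystroglycan gene DAG1 differed by -0.01 and the sarcoglycan SGCA by 0.17. LAMA2, the laminin chain of the muscle basement membrane, was 0.99 higher and dysferlin (DYSF) 0.94, both just under the limit. CHRNA1, the ligand-binding subunit of the muscle acetylcholine receptor, was read at 9.65 and 10.03 in TB31 and at 10.52, 10.05 and 10.07 in TD31 against 6.13 to 7.45. Its partners were less raised or flat: CHRNB1 differed by 0.65, CHRND by 0.14, and CHRNG, the fetal subunit, by -0.01. RAPSN, which clusters the receptor, differed by 0.76, so 1 of the 14 junction genes met the rule, beside 0.481% higher over all genes.

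For calcium handling, 2 of 21 genes met the rule as higher, beside 0.481% of all genes. CASQ2, the slow and cardiac calcium store protein of the sarcoplasmic reticulum, read 8.25 to 8.73 against 5.71 to 6.09, a difference of 2.56 (SE 0.26), whereas CASQ1, the fast form, differed by -0.31. PVALB, a calcium buffer of fast fibres, was 1.96 (SE 0.45) higher. The calcium pumps ATP2A1 and ATP2A2 differed by -0.10 and -0.07. The ryanodine receptor RYR1 and its voltage sensor CACNA1S were not measured.

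Among genes of cell adhesion and fusion, and of muscle energy use, 1 met the rule. BOC, a surface receptor that promotes myoblast differentiation, was 1.00 (SE 0.22) higher and was 1 of 14 in its list; M-cadherin (CDH15) differed by 0.52. Of the 21 metabolic genes none met the rule. Muscle creatine kinase (CKM), its mitochondrial partner CKMT2 and myoglobin (MB), genes of mature fibres, differed by -0.01, -0.03 and -0.01, with CKM at 5.68 to 5.92 in the 5 arrays; a second CKM probe set differed by -2.04. CKB, the brain-type creatine kinase, differed by 1.19 (SE 0.93) with overlapping arrays, and COX6A2, the muscle form of a cytochrome oxidase subunit, by 0.64 (SE 0.18). A count of 0 in a list of this length is also near the 0.481% of all genes that were higher.

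The limma call served here only to rank size against the spread between cultures, since the cultures were chosen on muscle genes. With limma on the means of 8 teratoma cultures, 4 genes (0.0283%), MYF5, MYF6, ACTN2 and TNNI2, reached a Benjamini-Hochberg adjusted p under 0.05 with a difference of at least 1, and 0 were lower (0%); at an unadjusted p under 0.05 limma gave 274 genes higher and 231 lower. Nothing is read from these counts. The number fell to 1 without TB31, 1 without TC31, 0 without TA31, 0 without TE31 and 0 with TB31c kept.

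Beyond the muscle lists, 35 genes were higher. Several are known from muscle although they stood in no list: ASB5, a ubiquitin-ligase adaptor of muscle, read 7.28 to 7.95 against 2.96 to 4.10; TXLNB, muscle taxilin, 5.66 to 6.22 against 3.01 to 3.90; and HJV, hemojuvelin, made by muscle and liver, 7.83 to 8.27 against 6.03 to 6.58. VASH2, a tubulin-trimming enzyme, was read at 10.77, 10.75, 10.35, 10.29 and 10.05 against 3.45 to 7.89, and its second probe set was 2.22 higher. These genes, like the others outside the lists, were named after their values were seen.

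The insulin-like growth factors, which promote myoblast growth and differentiation, were both higher. IGF1 read 9.32, 9.86, 9.27, 9.18 and 9.48 against 7.03 to 8.58, a difference of 1.56 (SE 0.38), and 2.22 on a second probe set. IGF2 read 10.35 to 10.88 against 8.21 to 10.28, a difference of 1.35 (SE 0.47), and TC31 lay just below the lowest of the chosen arrays. H19, the non-coding RNA imprinted beside IGF2, differed by 1.49 with overlapping arrays, since it was low only in TE31 (9.42 to 9.86) and 13.03 to 13.64 in the other line C3106 teratoma cultures. DLK1, an imprinted inhibitor of differentiation, was at 8.24 and 8.44 in TB31 and at 10.88, 11.04 and 11.31 in TD31 and also overlapped the comparison. In this list 2 of 21 genes met the rule, beside 0.481% higher over all genes, and 10 of the 21 differences were negative.

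Matrix genes, by which the labelled fibroblasts are known, were high on both sides: the mean signal of 33 fibroblast matrix genes was 11.14 to 11.42 in the 5 arrays and 10.97 to 11.23 in the 9. Only OGN (osteoglycin), 2.04 (SE 0.87) higher, and COL14A1, a collagen of fibril surfaces, 2.40 (SE 0.73) higher, met the rule, and a second COL14A1 probe set differed by -0.18. HEY1, a target of Notch signalling, was 1.23 higher and 0.69 higher without TE31. Of 23 replication and mitosis genes, 21 had positive differences, beside 6585 of 14132 over all genes. In TB31 alone 18 were positive, and in TD31 alone 18. For both cultures together the median was 0.28 and the largest value 0.53. None met the rule, which in a list of this length is near the share over all genes. The mean signal of the list was 9.96 to 10.19 in the 5 arrays and 9.44 to 10.00 in the 9.

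Besides MYH2 and CRYAB, some of the 54 lower genes are given here. They were named after their values were seen and are not a ranking by size. TFPI2, a secreted protease inhibitor, was read at 8.15, 8.04, 7.96, 8.02 and 7.91 against 11.05 to 12.04, a difference of -3.64 (SE 0.60) that a second probe set gave as -3.84. PAX6, a regulator of eye and brain development, read 5.03 to 5.60 against 6.19 to 10.32, with TA31 at the top; its difference was -3.02, or -2.01 without TA31. CRHBP, which binds corticotropin-releasing hormone, read 5.22 and 5.40 in TB31 and 4.69, 4.46 and 4.66 in TD31 against 7.00 to 9.44. SOX2, a factor of neural and pluripotent cells, is not among the 54. It differed by -2.96, but TE31, at 4.62 to 5.39, overlapped the 4.56 to 5.01 of the chosen arrays.

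TFAP2C, a factor of ectoderm and trophoblast, was at 7.25 and 7.25 in TB31 and at 5.36, 5.56 and 5.66 in TD31 against 8.49 to 9.60. The collagenases MMP1 and MMP13 differed by -2.56 and -2.47; MMP1 was low chiefly in TD31, the difference being -1.56 in TB31 alone, and MMP13 was high chiefly in TA31, the difference being -1.44 without it. FGF5, a fibroblast growth factor, read 6.49 to 6.85 against 8.03 to 10.06, HAND1, a cardiac and trophoblast factor, differed by -1.05 (-0.48 without TC31) and LIF, an interleukin-6-type cytokine, by -1.03. Of the 54 genes, 26 had a second probe set, which was lower by at least 1 for 13, lower by less for 10 and opposite for 3. Of the 68 higher genes, 22 had one, which passed 1 for 11, fell short for 8 and was opposite for 3.

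**Figure D2:**
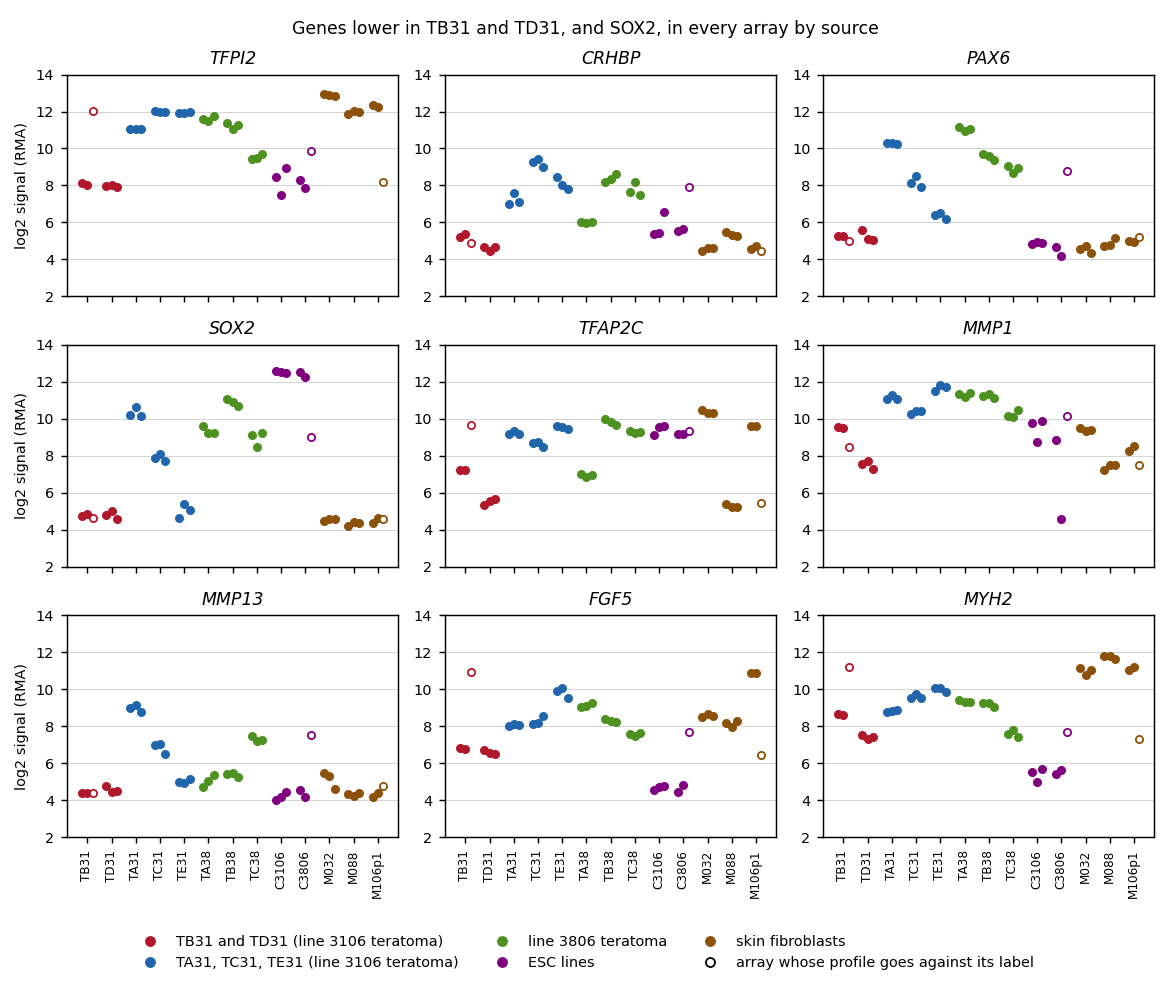
Log2 signal (vertical axes) of 8 genes lower in TB31 and TD31 and of SOX2, whose arrays overlap, in every array by source (horizontal axis); each point is 1 array, and open points are arrays whose profile goes against their label. TFPI2 stands at 7.91 to 8.15 in the 5 arrays against 11.05 to 12.04 in TA31, TC31 and TE31; PAX6 and SOX2 are high in TA31 and lower in TC31 and TE31.

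Markers of other cell types were compared in the same way. For the 11 smooth muscle markers the cultures parted: TD31 alone lay below the comparison mean for 11 of 11 (median -0.60), whereas TB31 alone lay above it for 8 (median 0.06). The shares of all genes below or above that mean in a single culture were not counted. CNN1 (calponin) differed by -2.22 in TD31 and 0.39 in TB31. None met the rule for both cultures, and the list means were 9.31 to 10.31 in the 5 arrays and 9.58 to 10.88 in the 9. Of 15 cardiac markers HAND1 alone met it, as lower, and of 13 neural markers PAX6 alone, as lower. No gene met it among 17 cartilage, bone and tendon, 10 endothelial, 8 leukocyte, 6 adipocyte, 14 epithelial, 8 endoderm, 12 Schwann-cell and melanocyte or 12 pluripotency markers. The part of such cells in the differences was not tested. Over all genes the shares were 0.481% higher and 0.382% lower, so counts of 0 or 1 in such short lists say little.

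Elsewhere in the series the muscle genes were found in part. On a scale where the mean of TA31, TC31 and TE31 is 0% and that of TB31 and TD31 is 100%, the median position of the 33 genes was 104% and 107% in the arrays of TB31 and 93.0% to 95.9% in those of TD31. A pair of cultures of the female line C3806 lay between, TA38 at 45.0% and TB38 at 35.7%, while TC38 lay at 0.866%. The culture means of 23 of the 33 genes in TA38, and of 23 in TB38, exceeded all 9 comparison arrays, against 6 in TC38. The share of all genes that did so was not counted. In TA38 and TB38 MYH3 averaged 10.22 and 9.53, MYH8 6.23 and 5.37, ACTC1 11.17 and 10.93 and CHRNA1 8.54 and 8.38. Each was below TB31 and TD31. MYF5, at 3.95 and 4.16, was at the level of the comparison cultures, and MYF6, at 4.53 and 4.76, as well; MYOD1, at 5.91 and 5.72, was just above. These cultures thus held sarcomere transcripts with little signal of the myogenic factors measured. The genes lower in TB31 and TD31 lay elsewhere: their median position was 5.45% in TA38, 5.15% in TB38 and 53.5% in TC38, but 112% in the ESC line C3106, whose signals for them were thus as low. How TA38 and TB38 differ from TB31 and TD31 was not tested; line, sex and teratoma differ together and cannot be told apart.

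Single muscle genes were also high in skin and ESC sources. The means of 3 of the 33 genes in M032, 7 in M088 and 4 in the ESC line C3106 exceeded all 9 comparison arrays. The share of all genes that did so was not counted, so nothing is read from these numbers. KLHL41 averaged 10.64 in M032, SMPX 8.13 in M032 and 8.71 in M088, TNNC1 10.54 and CAVIN4 8.89 in M088. HSPB3 averaged 9.31 in M032, above both TB31 (8.75) and TD31 (8.96), so genes such as these do not mark the chosen cultures within the series. ACTC1 averaged 11.68 and TNNC2 8.64 in C3106. The median position over the 33 genes was nonetheless -6.98% in M032, -1.42% in M088 and -7.56% in C3106. MYF5, by contrast, was at most 4.21 in every array outside TB31, TD31 and the array labelled M106p1f.

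**Figure D3:**
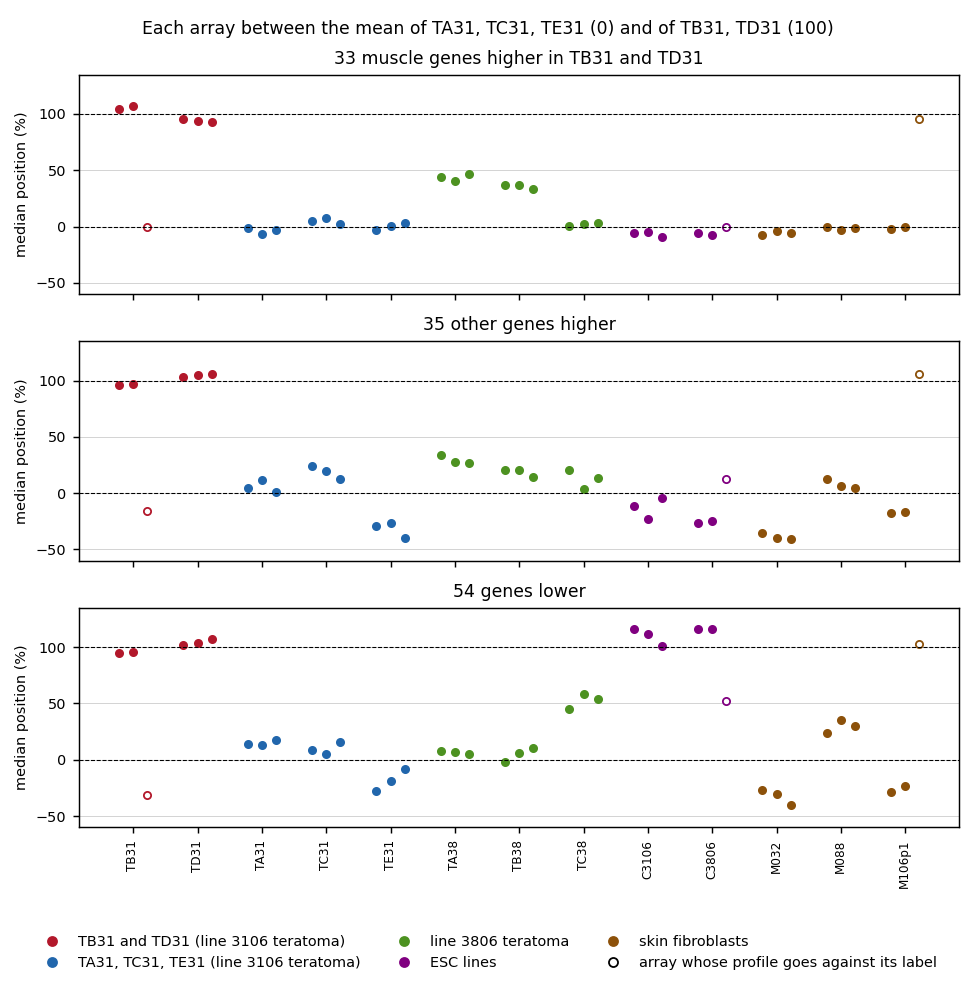
Median position (vertical axis, %) of each array between the mean of TA31, TC31 and TE31 (0) and that of TB31 and TD31 (100), for 33 muscle genes, 35 other higher genes and 54 lower genes, by source; each point is 1 array, open where its profile goes against its label. TA38 (45.0%) and TB38 (35.7%) are intermediate for the muscle genes and at 5.45% and 5.15% for the lower genes; M106p1f lies near 100 in all 3 panels and TB31c at or below 0.

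The array labelled M106p1f, which entered neither side, had nearly the full pattern. It read 11.61 for MYH3, 10.83 for MYL1 and 9.01 for MYF5. Its value was nearer the mean of TB31 and TD31 than that of the comparison for 32 of the 33 muscle genes, 33 of the 35 other higher genes and 54 of the 54 lower genes, against 67.3% of all genes. Between the chosen cultures it resembled TD31: r was 0.996 to 0.998 with the arrays of TD31 and 0.980 with both of TB31, and for all 509 genes that differed between these cultures it lay nearer TD31. TB31c lay nearer the chosen cultures for 3 of the 33 muscle genes and 29.9% of all genes. Whether samples were exchanged was not tested.

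TD31 and TB31 shared the muscle pattern but differed widely in other genes. By limma on the arrays of 8 teratoma cultures, 242 genes (1.71% of 14132) rose and 267 (1.89%) fell in TD31 relative to TB31, at an adjusted p under 0.05 and a difference of at least 1. The spread in this test is that between arrays of a culture, with 2 arrays of TB31 and 3 of TD31 from 1 teratoma each. It therefore compares these cultures and not kinds of teratoma. Of the 181 muscle-list genes, 2 (1.1%) rose and 8 (4.42%) fell. With TB31c kept under its label the counts over all genes were 298 and 284.

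MYF5 was 1.06 (SE 0.12) higher in TD31 (limma adjusted p = 5.08e-07) and MYOD1 fell by 1.37 (SE 0.13; limma adjusted p = 6.73e-08), all 3 arrays of TD31 lying above, and below, both arrays of TB31 in turn. The related factors thus moved in opposite directions between the cultures. HES6 fell by 1.01 (limma adjusted p = 7.67e-08) and MEF2C by 1.00 (limma adjusted p = 4.05e-07), while MYF6 differed by 0.35 (limma adjusted p = 0.131). The MYF5 difference was 0.83, under the limit of 1, without TB31a.

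Among structural genes, MYBPH fell by 1.67 (SE 0.11; limma adjusted p = 2.4e-10), TNNC2 by 1.39 (SE 0.12; 6.83e-09) and CSRP3 by 1.01 (SE 0.16; 4.96e-05) in TD31. MYH2 fell by 1.22 and HSPB7, a small heat-shock protein of heart and muscle, by 1.51. LRP4, the agrin receptor of the neuromuscular junction, rose by 1.01. MYH3 (-0.38), MYH8 (-0.27), MYL1 (-0.04), ACTC1 (-0.15), ACTN2 (-0.11) and SMPX (-0.07) did not pass, each within 0.4 of 0. Over the 33 muscle genes TD31 was below TB31 for 25 and above for 8, with a median of -0.29, beside -0.01 over all genes. The limma adjusted p was under 0.05 for 15, of which 6 also reached the difference of 1. The shares of all genes below TB31, or under that p, were not counted, so nothing is read from the 25 and the 15. The calls of MYOD1, MYBPH, TNNC2 and CSRP3 rested on leaving out TB31c: with it kept, their differences were -0.67, -0.93, 0.14 and 0.45. Among the 20 genes recomputed for this comparison, 4 lost their call in that setting and 3 changed sign. Those of HES6, MEF2C and CSRP3 lay at the limit of 1.

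**Figure D4:**
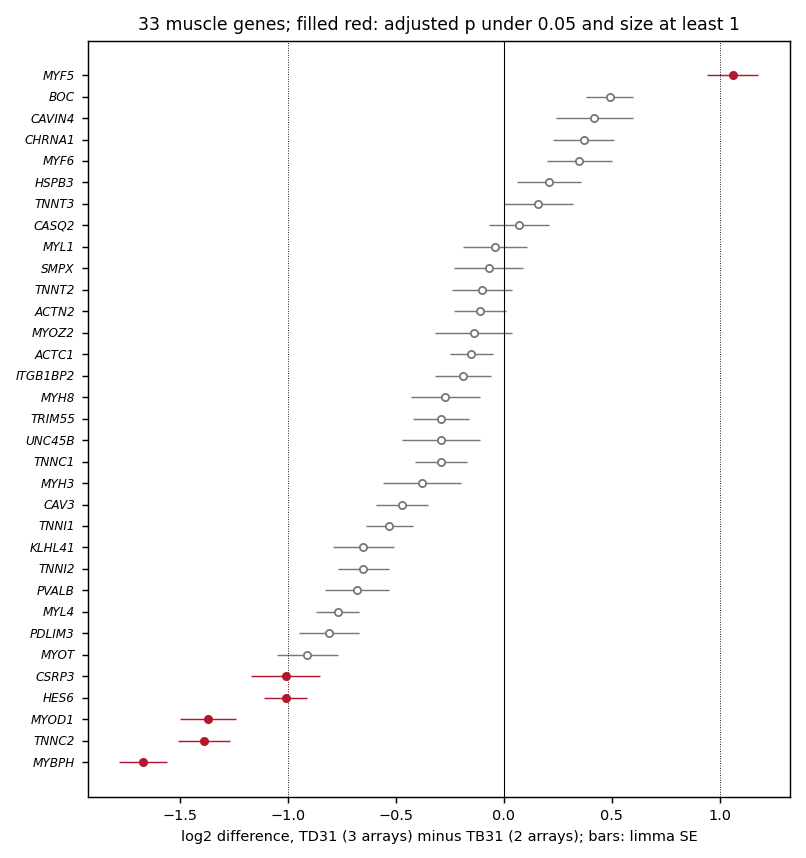
Log2 difference, TD31 (3 arrays) minus TB31 (2 arrays), of the 33 muscle genes (horizontal axis; bars are limma SE), ordered by size; filled red points have an adjusted p under 0.05 and a size of at least 1 (dotted lines). MYF5 is at 1.06 on the right and MYBPH, TNNC2, MYOD1, HES6 and CSRP3 lie at -1.67 to -1.01 on the left; MYL1 is at -0.04.

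The largest differences lay outside muscle. SPHKAP, an anchoring protein for protein kinase A, was read at 5.69 and 5.80 in TB31 and at 10.69, 10.35 and 10.61 in TD31, a rise of 4.80 (SE 0.15). PRG4 (lubricin), DSP (desmoplakin, of desmosomes), ABLIM1 (an actin-binding LIM protein) and LOC711061 rose by 4.71, 4.50, 4.26 and 4.23. HOXA9, a position factor of the trunk and limbs, was at 9.56 and 9.51 in TB31 and at 4.61, 4.32 and 3.92 in TD31, and fell by 5.25 (SE 0.15). PLAC8, CA12 (a carbonic anhydrase), KRT8 (a simple-epithelium keratin) and RARRES1 fell by 4.95, 4.44, 4.14 and 4.08. Each of these 10 had a limma adjusted p of at most 3.11e-12.

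Of the HOX genes, which record position along the body axis, 7 of 22 measured fell in TD31 and 0 rose, beside the 1.89% that fell and the 1.71% that rose overall. Besides HOXA9 these were HOXC6 (-3.75), HOXA5 (-2.64), HOXA3 (-2.37), HOXC10 (-1.56), HOXA7 (-1.44) and HOXA10 (-1.19). Against the mean of TA31, TC31 and TE31, several stood apart mainly in TB31. HOXA3 was at 2.46 in TB31 and 0.09 in TD31, HOXA5 at 2.21 and -0.43, HOXC10 at 1.36 and -0.20, and HOXA7 at 0.99 and -0.45. HOXA9 (2.70 and -2.55), HOXC6 (1.76 and -1.99) and HOXA10 (0.52 and -0.67) lay on both sides of that mean. MEIS1 and MEIS2, partners of HOX proteins, fell by 2.37 and 2.15. In the contrast of both cultures with TA31, TC31 and TE31, no HOX gene met the descriptive rule. In a list of this length that is near the share over all genes.

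Notch genes, which hold muscle progenitors back from differentiation, included 4 of 23 measured that rose in TD31, beside 1.71% of all genes: the ligand JAG1 (8.67 and 8.81 in TB31; 10.99, 10.91 and 10.67 in TD31), the ligand DNER by 1.46, the regulator DTX4 by 1.35 and the target HEY2 by 1.16. The list was not tested as a whole. Against the mean of TA31, TC31 and TE31, DNER was at -0.41 in TD31 and -1.87 in TB31. JAG1, DTX4 and HEY2 lay above that mean in TD31 (1.52, 1.59 and 1.08). DLK1 rose by 2.73 and VCAM1, a surface protein of satellite cells and stromal cells, by 1.82. MET, the receptor for hepatocyte growth factor, fell by 1.83. Of the 11 smooth muscle markers, 3 fell in TD31, beside 1.89% of all genes: CNN1 by 2.60, SYNPO2 by 1.57 and TGFB1I1 by 1.13. Of 23 replication genes CCNE2 passed, with a rise of 1.29, which in a list of this length is near the share over all genes.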

How the data were processed

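RNA of ESC, teratoma and skin cultures was measured on 39 single-colour arrays. The deposited values are log2 signals; per the submitters' processing notes, GCOS and RMA were used, in versions not stated here. Precision is limited by the number of arrays. Of 52865 probe sets, 24956 carried 1 gene name in the platform annotation, giving 14132 genes, each represented by its probe set of highest mean signal. Arrays of a culture were averaged (TB31 without TB31c). Differences and SE came from limma 3.58.1 (R 4.3.3, lmFit and eBayes) on the means of 8 teratoma cultures in 3 classes, with 5 residual degrees of freedom; TD31 against TB31 was fitted on arrays, with 15. Calls needed a Benjamini-Hochberg adjusted p under 0.05 over all genes and a difference of at least 1. The procedure was tested on simulated data.

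The members and gene lists were chosen with earlier results of these data known. Genes were to be named from the 12 largest called differences each way, all called muscle-list members, up to 4 members of any other list, and for TD31 against TB31 the 5 largest each way and up to 6 muscle genes. As limma called only 4 genes, the naming was widened, after the values were seen, to genes whose arrays do not overlap and to list members set beside them. Gene neighbours were read from RefSeq by symbol; the series' own genome build was not used, and no sequence is printed. Alternatives covered the array left out, the spread, the unit, a replicate block on the array letters, the probe set, a filter on low signal, centring, and leaving out cultures or arrays.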

Additional observations from a re-analysis of the deposited data

Results flagged for a closer look

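In an array outside the comparison, the skin sample labelled M106p1f, MYH3 was 11.61, MYL1 10.83 and MYF5 9.01, each above all 9 arrays of TA31, TC31 and TE31. In the teratoma cultures TA38 and TB38, also outside the comparison, 23 and 23 of the 33 muscle genes exceeded those 9 arrays. The share of all genes that did so was not counted. TD31 and TB31 differed from each other, by limma's test of the difference, for MYF5 (1.06), MYOD1 (-1.37), HES6 (-1.01), MYBPH (-1.67), TNNC2 (-1.39) and CSRP3 (-1.01). These were taken from the 33 muscle genes, so by the rule both cultures lay above the 9 arrays of TA31, TC31 and TE31. In TD31 alone the difference from the mean of TA31, TC31 and TE31 was only 0.81 for MYOD1, 0.73 for HES6 and 0.44 for MYBPH.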

How the results depend on the processing

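Recomputed were 85 genes, namely the 68 higher ones, the lower ones of largest size with MYH2 and CRYAB, and SOX2, MEOX2 and H19. Their differences between the chosen and the comparison cultures kept their sign in the 20 alternatives, and 31 of 1700 values moved by more than the spread between cultures. Much of this was fixed in advance. All but SOX2, MEOX2 and H19 were taken for having no array overlap, so leaving out arrays or cultures could not reverse them. Several alternatives changed only the estimate of spread or the genes kept, and left the differences as they were. Of the moved values, 21 came with TB31c kept and 7 with the most variable probe set. Smaller or overlapping differences named beside these genes did not all keep their sign: CNN1 was 0.39 and DLK1 -0.14 without TD31, and MYOM1 -0.39 without TB31. Of the counts, the 4 genes higher by limma became 0 with TB31c kept and 7 over all probe sets. They became 18 over 13 sources without C3806c and M106p1f (added after seeing the data). With arrays as unit and the culture as a random block there were 62, and 57 when the array letter was added to that fit. Leaving out cultures gave 0 to 4. The 0 genes lower became 46 with arrays as unit and the random block, and 37 with the letter added. The 68 and 54 genes without overlap became 7 and 14 with TB31c kept, 29 and 9 at a difference of at least 2, and 67 to 206 and 73 to 207 when a culture was left out. The causes were not tested. By the rule itself, fewer cultures leave fewer arrays that can overlap.

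The letters that name arrays a, b and c are not stated to pair cultures. With them as a replicate block, TD31 against TB31 gave 249 higher and 261 lower, beside 242 and 267 without it. Leaving out an array gave 234 to 247 and 265 to 282. Of 220 values of 20 genes in that comparison, 200 stayed as they were, called or not called. A call was lost in 17, and 3 changed sign. The changes of sign came with TB31c kept: TNNC2 0.14, CSRP3 0.45 and MYL4 0.13. MYL4 had no call to lose. In that setting 4 further genes lost their call, among them MYOD1 at -0.67 and MYBPH at -0.93. Signals near the low end of the arrays limit the smaller differences: for 18 of the 33 muscle genes the comparison mean was under 6.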
